A study of Mus musculus with 12 samples.

Results

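Skeletal muscle genes were followed through 12 mammary gland arrays. The members were 40 genes of the sarcomere, of its calcium supply and of muscle energy metabolism, taken by name from the 18193 genes with a probe set of their own. On the array 70 probe sets were annotated to them. Of these, 2 named both Myh7 and Myh6 and were left out, and 58 of the other 68 exceeded the array median on 3 or more arrays and were tested. Where a gene had several probe sets, the one with the highest mean over the arrays stood for it, which left 38 genes with a tested one. Myh7 and Tnni1 were too low to be tested. All values are log2 expression values, so that a difference of 1 is a doubling, and differences are null minus wild type or 24 h minus 8 h.

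The glands came from female BALB/c mice, 10 weeks old and ovariectomized, which either lacked the progesterone receptor (null) or were wild type. Every mouse received 100 ng of 17β-estradiol under the skin for 24 h, and then 17β-estradiol together with 2.5 ug of progesterone for 24 h or 8 h. The groups were thus null at 24 h, wild type at 24 h, null at 8 h and wild type at 8 h, with 3 arrays a group and the RNA of 3 pooled mice on each array. No group went without progesterone, and the 24 h groups had also received estradiol for longer. The labels give neither the construction of the null allele, nor which gland was taken, nor how it was freed from the tissue around it.

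Skeletal muscle fibres are filled with sarcomeres, in which thick filaments of myosin slide along thin filaments of actin when calcium is released from the sarcoplasmic reticulum. Fast and slow fibres build this machine from different family members, so that fast myosins, troponins and calcium pumps mark one kind of fibre and their slow relatives the other. Mammary fat pads lie against the muscles of the body wall and under a thin sheet of skin muscle, and a dissected gland may carry fibres along. In bulk RNA of this kind, fewer muscle fibres and less muscle RNA per fibre cannot be told apart.

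The promoters of 4 members are shown because myosins tell fibre types apart: Myh4, Myh1 and Myh2 encode the 3 fast myosin heavy chains of adult limb and trunk muscle, and Myl2 encodes the slow regulatory myosin light chain. The sequences are from RefSeq, build GRCm38.p6, plus strand, 250 bases before to 50 bases after the gene start. Capitals mark matches to CAGCTG (the E-box form favoured by myogenic factors), to the motif of the MEF2 factors and to the CArG box bound by serum response factor, searched on both strands. The 3 myosin heavy chain genes lie side by side, at chr11:67237562-67237861 for the Myh4 promoter, chr11:67199852-67200151 for Myh1 and chr11:67170777-67171076 for Myh2. The Myl2 promoter lies at chr5:122092474-122092773.
Myh4: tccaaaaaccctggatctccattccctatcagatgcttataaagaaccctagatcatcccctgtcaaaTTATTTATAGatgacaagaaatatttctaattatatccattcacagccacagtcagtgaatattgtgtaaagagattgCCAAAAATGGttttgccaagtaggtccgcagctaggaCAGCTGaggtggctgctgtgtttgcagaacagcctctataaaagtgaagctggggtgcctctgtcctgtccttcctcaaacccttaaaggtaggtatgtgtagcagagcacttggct
Myh1: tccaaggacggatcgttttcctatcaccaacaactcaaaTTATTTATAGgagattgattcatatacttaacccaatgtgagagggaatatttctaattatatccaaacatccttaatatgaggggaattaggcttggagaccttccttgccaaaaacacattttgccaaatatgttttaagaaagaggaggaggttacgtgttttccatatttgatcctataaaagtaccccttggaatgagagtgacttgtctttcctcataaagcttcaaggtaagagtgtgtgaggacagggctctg
Myh2: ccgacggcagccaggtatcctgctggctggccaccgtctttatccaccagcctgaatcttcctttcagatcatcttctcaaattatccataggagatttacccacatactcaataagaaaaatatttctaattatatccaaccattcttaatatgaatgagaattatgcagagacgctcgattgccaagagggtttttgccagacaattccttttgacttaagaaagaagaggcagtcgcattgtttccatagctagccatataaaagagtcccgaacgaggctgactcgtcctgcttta
Myl2: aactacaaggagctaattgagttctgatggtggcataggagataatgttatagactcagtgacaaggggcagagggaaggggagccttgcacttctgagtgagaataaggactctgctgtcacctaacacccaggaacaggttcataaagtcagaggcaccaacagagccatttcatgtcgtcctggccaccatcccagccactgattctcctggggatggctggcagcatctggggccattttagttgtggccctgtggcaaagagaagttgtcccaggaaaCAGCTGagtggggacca
The Myh4 window held all 3 motifs, the Myh1 window a MEF2 match and the Myl2 window a CAGCTG just inside the gene, while the Myh2 window held none of them. The promoter table had entries for 30 of the 40 members. CAGCTG stood in 16 of these 30 windows (53.3%), against 16.1% of 27025 promoters of the same length. MEF2 matches stood in 5 windows (16.7%, against 3.26% of all) and CArG boxes in 4 (13.3%, against 1.57%). The looser E-box CANNTG, which includes CAGCTG, was in 83.3% of member windows and 72.1% of all. A TATAAA read on the gene's strand was in 16.7% of member windows and 8.88% of all. These matches describe letters in the windows and were not tied to the array values by any test.

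Array medians lay between 5.84 and 5.91, and arrays of 1 group correlated at 0.965 to 0.993 over all tested probe sets. The targeted gene Pgr gave mixed signals. Its highest probe set read 7.86, 7.33 and 7.20 in null pools at 24 h, against 7.84, 7.52 and 8.10 in wild type pools, and it read 9.07, 8.56 and 9.04 in null pools at 8 h, against 10.01, 9.89 and 9.94 in wild type pools. A second probe set was higher in all 6 null pools (6.24 to 6.93) than in the 6 wild type pools (4.01 to 5.02). Where either probe set lies relative to the null allele is not known here.

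Muscle genes varied far more from pool to pool than most genes did. The mean level of the 38 tested members, taken as each gene's deviation from its own mean over the 12 arrays, was 0.40, -1.12 and -0.68 in null pools 1 to 3 at 24 h, against 1.99, -0.38 and 0.44 in wild type pools. At 8 h it was 0.25, -2.43 and -0.33 in null pools, against 1.38, -0.09 and 0.58 in wild type pools. The lowest was null pool 2 at 8 h and the highest wild type pool 1 at 24 h, and the genotypes overlapped at both times. Group means were -0.47 ± 0.78 in null and 0.68 ± 1.20 in wild type glands at 24 h, and -0.84 ± 1.41 in null and 0.62 ± 0.74 in wild type glands at 8 h (SD, n = 3 pools each). No p is given for this mean, since it is a score over chosen genes.

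**Figure D1:**
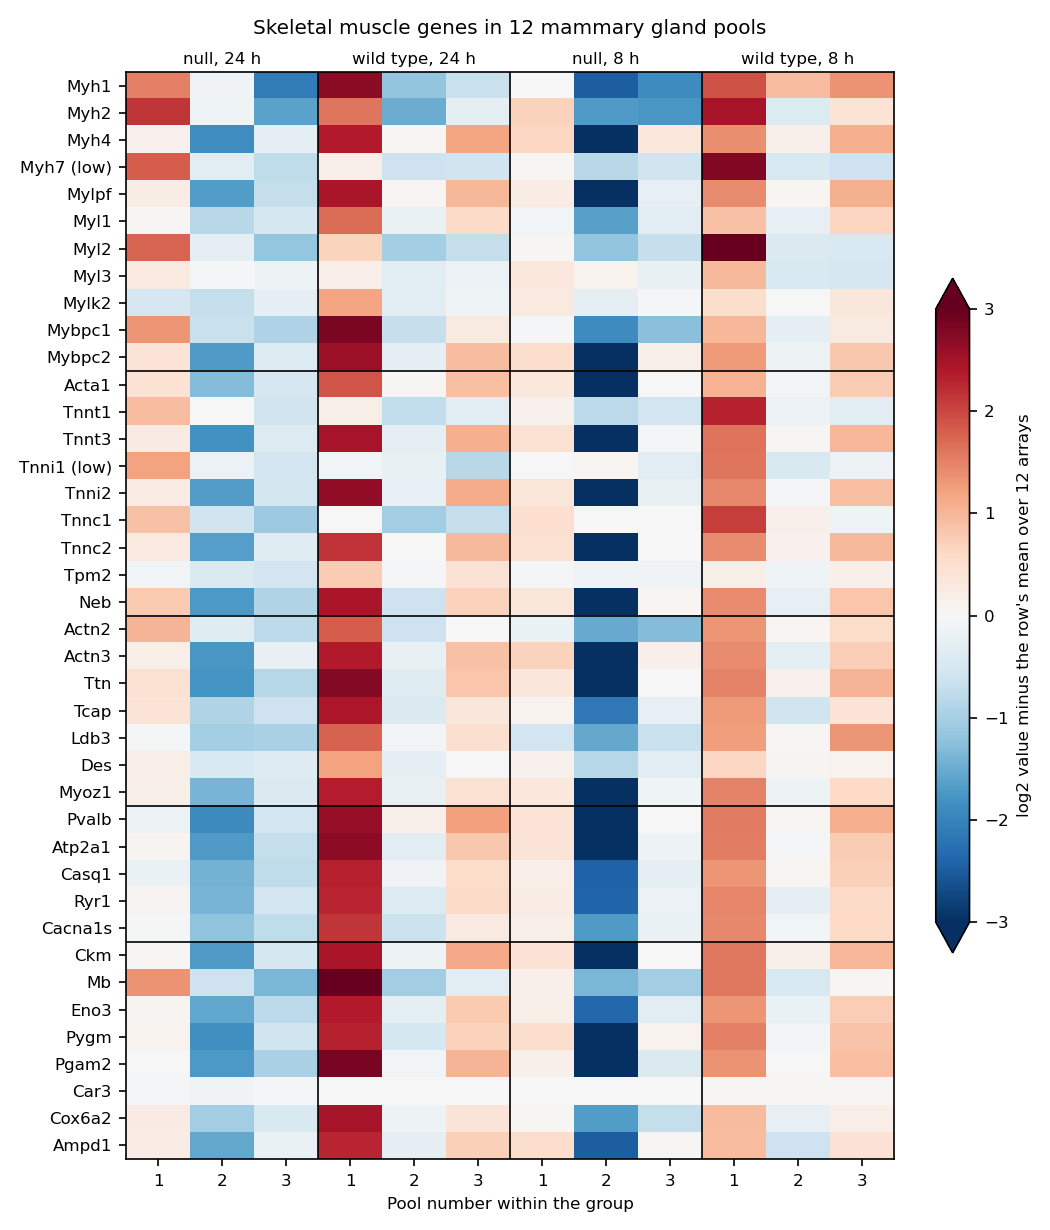
Level of the 40 skeletal muscle genes (rows, grouped from the top as thick filament, thin filament, Z-disc and titin, excitation and calcium, energy and gas exchange) in the 12 pools (columns), as log2 value minus the gene's mean, with colours ending at 3 in each direction. Most rows share a dark red column in wild type pool 1 at 24 h and a dark blue column in null pool 2 at 8 h, and Myh7 and Tnni1 (low) were not tested.

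Null pool 2 at 8 h was the lowest of the 12 arrays for 32 of the 38 genes. Wild type pool 1 at 24 h was the highest for 32, and wild type pool 1 at 8 h for 5. In all 4 groups pool 1 had the highest mean member level and pool 2 the lowest, and 35 of the 38 genes were highest in pool 1 of every group. The labels number the pools without saying that a number marks a shared day, cage or dissection.

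Thick filament genes lay lower in null glands in 7 of 10 tested genes at 24 h (median -0.81) and in 9 of 10 at 8 h (median -1.61), yet no representing probe set passed the test. Myh4, the myosin heavy chain of the fastest fibres, read 11.35, 9.36 and 10.96 in null pools at 24 h, against 13.60, 11.28 and 12.42 in wild type pools. At 8 h it read 11.84, 6.11 and 11.54 in null pools, against 12.63, 11.37 and 12.29 in wild type pools. Null pool 2 at 8 h stood far below all others, the groups overlapped at both times, and the 12 arrays spanned 179-fold. The Myh4 difference was -1.87 (SE 1.24, limma adjusted p = 0.56) at 24 h and -2.27 (SE 1.24, limma adjusted p = 0.42) at 8 h, and without null pool 2 at 8 h it was -0.41 there.

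Myh1, the heavy chain of the next fastest fibres, showed a different spread over the pools. It read 10.57, 8.96 and 6.97 in null pools at 24 h, against 11.79, 7.89 and 8.41 in wild type pools. At 8 h it read 9.09, 6.60 and 7.19 in null pools, against 10.98, 9.99 and 10.42 in wild type pools. At 8 h every null pool lay below every wild type pool, with a difference of -2.84 (SE 1.06, limma adjusted p = 0.21), the largest of any member at 8 h. At 24 h the groups overlapped (-0.53, SE 1.06). A further Myh1 probe set followed the same pools at 8 h, with 9.04, 6.72 and 7.06 in null pools, against 10.75, 9.81 and 10.17 in wild type pools.

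Myh2, the heavy chain of fast oxidative fibres, read 9.19, 6.91 and 5.43 in null pools at 24 h, against 8.64, 5.55 and 6.73 in wild type pools, and 7.73, 5.34 and 5.28 in null pools at 8 h, against 9.50, 6.63 and 7.44 in wild type pools. Pool 1 was the highest in each group and the genotypes overlapped. Mylpf, the fast regulatory light chain, differed by -1.89 (SE 0.95, limma adjusted p = 0.41) at 24 h and by -2.13 (SE 0.95, limma adjusted p = 0.31) at 8 h. Myl1, the fast essential light chain, differed by -1.12 (SE 0.50, limma adjusted p = 0.35) at 24 h and -1.10 (SE 0.50, limma adjusted p = 0.32) at 8 h. Mybpc2, the fast myosin binding protein, spanned 103-fold over the arrays and differed by -1.64 at 24 h and -1.78 at 8 h.

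The slow thick filament genes did not all share 1 pattern. Myl2 read 7.14, 5.13 and 4.25 in null pools at 24 h, against 6.07, 4.39 and 4.70 in wild type pools, and 5.43, 4.23 and 4.72 in null pools at 8 h, against 8.88, 4.98 and 4.96 in wild type pools. Wild type pool 1 at 8 h stood apart at 8.88 and null pool 1 at 24 h came next. The Myl2 difference was 0.45 (SE 1.00, limma adjusted p = 0.90) at 24 h, turning to -0.37 without null pool 1, and -1.48 (SE 1.00, limma adjusted p = 0.54) at 8 h. Myl3, the slow essential light chain, stayed between 5.49 and 6.95 and was highest in wild type pool 1 at 8 h. It averaged 6.02 in null and 5.87 in wild type pools at 24 h, and 6.05 and 5.99 at 8 h. A second Myl3 probe set peaked in the same pool, at 7.64, and its means ran the other way. They were 5.70 in null and 5.84 in wild type pools at 24 h, and 5.81 and 6.03 at 8 h. Myh7, the slow heavy chain that was too low to be tested, read 6.89 in null pool 1 at 24 h and 7.86 in wild type pool 1 at 8 h, and 4.24 to 5.24 in the other 10 pools. Mybpc1, the slow myosin binding protein, correlated at 0.86 with the fast genes and 0.571 with the other slow ones. It read 9.01, 7.01 and 6.76 in null pools at 24 h, against 10.50, 6.97 and 7.94 in wild type pools, and 7.64, 5.79 and 6.43 in null pools at 8 h, against 8.67, 7.40 and 7.95 in wild type pools, highest in wild type pool 1 at 24 h and lowest in null pool 2 at 8 h. It differed by -0.88 at 24 h and -1.38 at 8 h, and without wild type pool 1 at 24 h by 0.14 at 24 h. Mylk2, the kinase of the regulatory light chain in skeletal muscle, averaged 5.02 ± 0.22 in null pools at 24 h and 5.75 ± 0.82 in wild type pools (SD, n = 3 each), and differed by -0.74 (SE 0.33, limma adjusted p = 0.36) at 24 h and -0.31 at 8 h. Without wild type pool 1 its 24 h difference was -0.27.

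**Figure D2:**
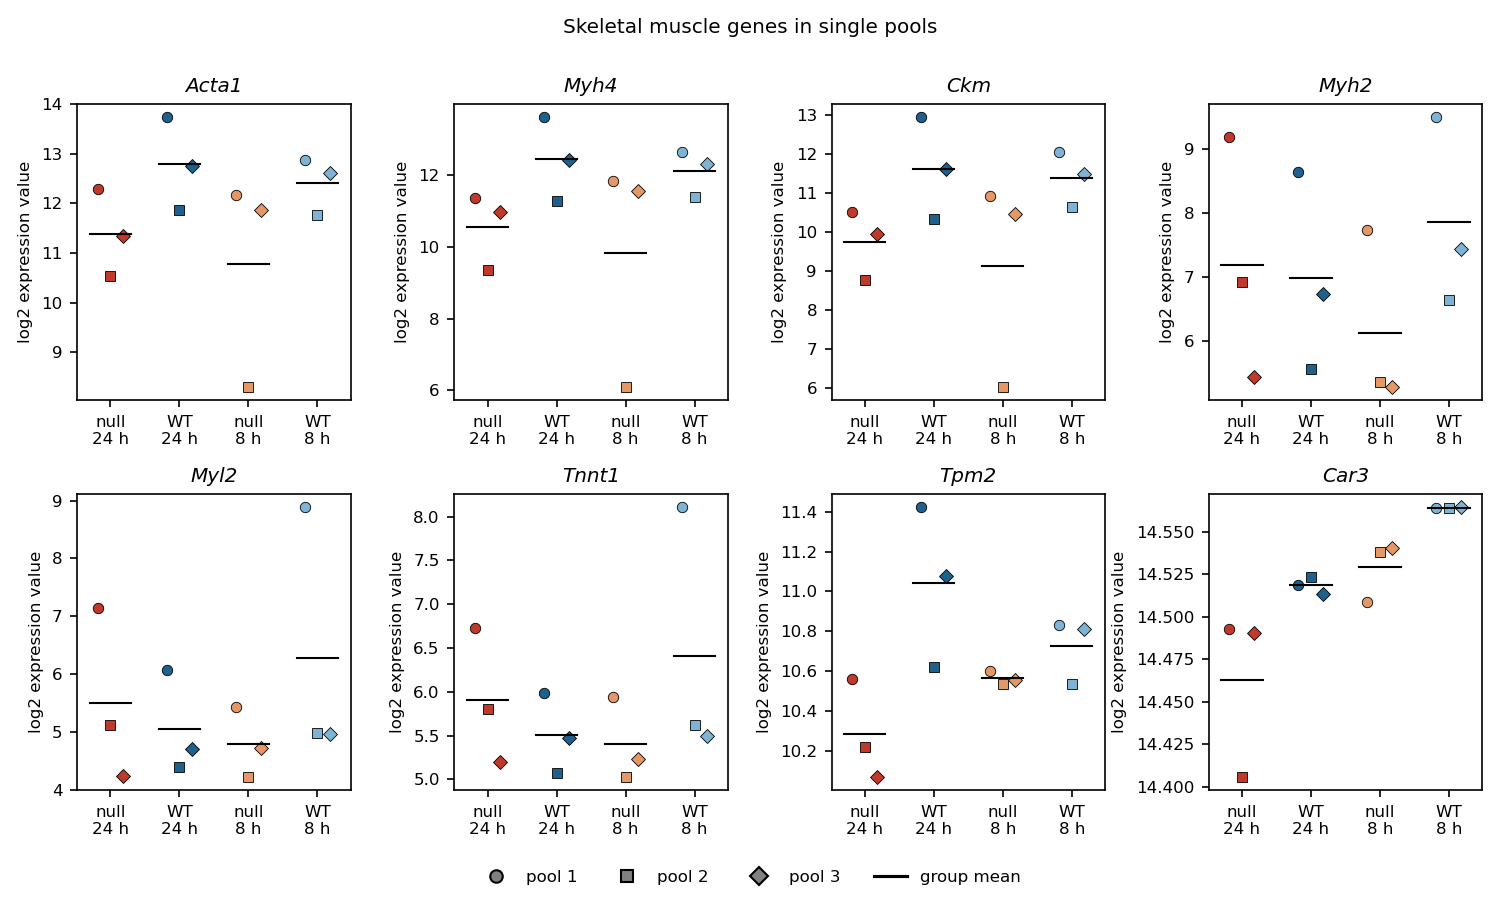
log2 expression value of 8 skeletal muscle genes in single pools (points, shape by pool number) of null and wild type (WT) glands at 24 h and 8 h, with group means as lines and a separate axis range for each gene. Acta1, Myh4 and Ckm share 1 very low point in null glands at 8 h, Myl2 and Tnnt1 share 1 high point in wild type glands at 8 h, and the Car3 axis covers only 14.4 to 14.6.

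Thin filament genes lay lower in null glands in 6 of 8 tested genes at 24 h (median -1.42) and in 8 of 8 at 8 h (median -1.61). Acta1, the actin of skeletal muscle thin filaments, read 12.29, 10.55 and 11.35 in null pools at 24 h, against 13.73, 11.88 and 12.75 in wild type pools. At 8 h it read 12.17, 8.31 and 11.86 in null pools, against 12.88, 11.77 and 12.61 in wild type pools. Null pool 2 at 8 h was again the lowest and both pairs of groups overlapped. The Acta1 difference was -1.39 (SE 0.87, limma adjusted p = 0.53) at 24 h and -1.64 (SE 0.87, limma adjusted p = 0.41) at 8 h. The fast troponin genes Tnnt3, Tnni2 and Tnnc2, whose proteins place the calcium switch on the thin filament, differed by -1.75, -1.83 and -1.62 at 24 h and by -2.21, -2.05 and -2.15 at 8 h, with adjusted p of 0.37 to 0.55 (limma). Neb, the giant thin filament ruler, differed by -1.45 at 24 h and -1.58 at 8 h.

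Tnnt1, the slow troponin T, read 6.72, 5.80 and 5.20 in null pools at 24 h, against 5.98, 5.07 and 5.47 in wild type pools, and 5.94, 5.03 and 5.23 in null pools at 8 h, against 8.10, 5.62 and 5.49 in wild type pools. As for Myl2, wild type pool 1 at 8 h was the highest and null pool 1 at 24 h the next. Tnnc1, the troponin C of slow fibres, had the same 2 pools on top, at 8.73 and 7.53. Tnni1, the slow troponin I that was too low to be tested, read 7.17 and 6.76 in them and 4.72 to 5.62 in the other 10.

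Tpm2, a tropomyosin of skeletal and smooth muscle, came nearest to a call at 24 h. It read 10.56, 10.22 and 10.07 in null pools, against 11.42, 10.62 and 11.08 in wild type pools, and all null pools lay lower. The difference was -0.76 (SE 0.18, limma adjusted p = 0.0776), with adjusted p from 0.00936 to 0.31 over the alternatives, the lowest without wild type pool 2 at 24 h. At 8 h it was -0.16. The probe sets of Tpm2 differed in the size of the difference. A second one, at 8.86, 7.12 and 8.01 in null pools, against 11.14, 8.42 and 9.64 in wild type pools at 24 h, differed by -1.74 (SE 0.78, limma adjusted p = 0.36). At 8 h its means were 8.25 in null and 9.72 in wild type pools. The remaining Tpm2 probe sets averaged 5.92 and 9.59 in null pools at 8 h, against 6.72 and 9.90 in wild type pools.

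The 7 genes of the Z-disc, where thin filaments are anchored, and of titin all lay lower in null glands at both times, with medians of -1.40 at 24 h and -1.65 at 8 h. Ldb3, which binds alpha-actinin at the Z-disc, read 7.97, 6.99 and 7.03 in null pools at 24 h, against 9.78, 7.93 and 8.49 in wild type pools, and 7.43, 6.48 and 7.34 in null pools at 8 h, against 9.26, 8.05 and 9.34 in wild type pools. All null pools lay lower at 8 h, and the groups overlapped only through null pool 1 at 24 h. The Ldb3 difference was -1.40 (SE 0.49, limma adjusted p = 0.23) at 24 h and -1.80 (SE 0.49, limma adjusted p = 0.0778) at 8 h, with adjusted p at 8 h from 0.00504 to 0.285 over the alternatives. Actn2, the alpha-actinin of all striated fibres, read 6.25, 4.94 and 5.15 in null pools at 8 h, against 7.78, 6.51 and 6.99 in wild type pools, with no overlap (difference -1.65, SE 0.63, limma adjusted p = 0.23). At 24 h its groups overlapped (-0.43, SE 0.63).

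Ttn, the molecular spring that runs from the Z-disc to the middle of each sarcomere, spanned 106-fold over the arrays and differed by -1.81 at 24 h and -2.09 at 8 h. Actn3, the alpha-actinin of fast fibres, read 10.09, 5.44 and 9.56 in null pools at 8 h, against 10.81, 9.10 and 10.14 in wild type pools, with a difference of -1.65. Without null pool 2 at 8 h the Actn3 difference was -0.19. Des, the intermediate filament desmin, which smooth muscle also makes, had smaller differences of -0.51 at 24 h and -0.63 at 8 h. Tcap, which caps titin, and Myoz1, a Z-disc protein of fast fibres, differed by -1.15 and -1.41 at 24 h and by -1.13 and -1.60 at 8 h.

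All 5 genes of excitation and calcium handling lay lower in null glands at both times (medians -1.72 at 24 h and -1.53 at 8 h). Pvalb, the calcium buffer of fast fibres, read 10.40, 8.64 and 9.97 in null pools at 24 h, against 13.17, 10.70 and 11.77 in wild type pools, and 10.97, 6.11 and 10.53 in null pools at 8 h, against 12.10, 10.61 and 11.61 in wild type pools. The groups did not overlap at 24 h and overlapped at 8 h. The Pvalb difference of -2.21 (SE 1.09, limma adjusted p = 0.40) was the largest of any member at 24 h. Casq1, which stores calcium in the sarcoplasmic reticulum, read 8.15, 6.91 and 7.57 in null pools at 24 h, against 10.66, 8.23 and 8.89 in wild type pools, without overlap (difference -1.72, SE 0.71, limma adjusted p = 0.32). Atp2a1, the calcium pump of fast fibres, Ryr1, the calcium release channel, and Cacna1s, its voltage sensor, differed by -1.84, -1.45 and -1.27 at 24 h and by -1.78, -1.37 and -1.23 at 8 h.

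Of the 8 energy and gas exchange genes, 7 lay lower in null glands at both times, and Car3, whose probe sets disagree, is described apart. The medians over all 8 were -1.51 at 24 h and -1.30 at 8 h, with Car3 at -0.06 and -0.03 by its highest probe set. Ckm, the creatine kinase that buffers ATP in muscle, read 10.52, 8.77 and 9.96 in null pools at 24 h, against 12.93, 10.32 and 11.61 in wild type pools, and 10.91, 6.05 and 10.46 in null pools at 8 h, against 12.06, 10.64 and 11.48 in wild type pools. Null pool 2 at 8 h was lowest and the groups overlapped at both times. The Ckm difference was -1.87 (SE 1.09, limma adjusted p = 0.49) at 24 h and -2.25 (SE 1.09, limma adjusted p = 0.35) at 8 h. Pgam2, the muscle phosphoglycerate mutase, read 8.80, 7.09 and 7.84 in null pools at 24 h, against 11.67, 8.74 and 9.83 in wild type pools, with overlap only between null pool 1 and wild type pool 2 (difference -2.17, SE 0.85, limma adjusted p = 0.29). Mb, the oxygen store myoglobin of oxidative fibres, read 9.28, 7.31 and 6.57 in null pools at 24 h, against 11.07, 6.89 and 7.61 in wild type pools, and differed by -0.80 there and by -1.14 at 8 h. Without wild type pool 1 at 24 h the Mb difference turned to 0.47. A second Mb probe set stayed between 5.72 and 6.21, near the array medians. It averaged 5.93 in both genotypes at 24 h, and 5.95 in null and 5.99 in wild type pools at 8 h. Eno3, the muscle enolase, and Pygm, the glycogen phosphorylase of muscle, differed by -1.71 and -1.60 at 24 h and by -1.46 and -1.57 at 8 h. Cox6a2, a muscle subunit of cytochrome oxidase, and Ampd1, the AMP deaminase of muscle, differed by -1.31 and -1.42 at 24 h and by -1.08 and -0.89 at 8 h.

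Car3, a carbonic anhydrase abundant in adipocytes as well as in slow muscle, did not follow the other members. Its highest probe set lay between 14.41 and 14.56 on all 12 arrays, near the top of the deposited scale at 14.7. Another Car3 probe set, well below that ceiling, read 10.92, 10.77 and 10.64 in null pools at 8 h, against 10.23, 9.91 and 10.14 in wild type pools. It was the one member probe set called, higher in null glands at 8 h by 0.68 (SE 0.13, limma adjusted p = 0.0174), and in wild type glands higher at 24 h by 0.79 (SE 0.13, limma adjusted p = 0.00942). The call at 8 h was lost when pool 1 or 2 of the null group or pool 2 of the wild type group at that time was left out (adjusted p up to 0.081). It was also lost with the mean member level, of which Car3 is a part, as a covariate (adjusted p = 0.0943). A further Car3 probe set also lay higher in null glands at 8 h without overlap, and was not called. It read 12.95, 12.79 and 12.60 in null pools, against 12.46, 12.27 and 12.44 in wild type pools. One more ran the other way at 8 h, with 13.84, 13.76 and 13.74 in null pools, against 14.03, 13.98 and 14.01 in wild type pools (difference -0.23, SE 0.06, limma adjusted p = 0.0738). The probe sets of Car3 thus disagree in direction.

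Set together, 33 of the 38 members lay lower in null glands at 24 h, with a median difference of -1.41, or 2.65-fold lower, beside -0.01 over all genes tested. None of the 58 member probe sets was called at an adjusted p below 0.05 (limma), against 1.11% of all 23709 tested. An unadjusted p below 0.05 was found for 13 of the 58, all lower in null glands, against 13.7% of all. Groups did not overlap, with null lower, for 5 of the 58, against 9.74% of all. This fit took no account of the pool numbers. In it, calls and groups without overlap were no more frequent among members than on the array, while an unadjusted p below 0.05 was more frequent. With the pool number as a block, 17 of the 58 were called, all lower in null glands, against 482 of all 23709. The numbers are not known to pair the genotypes. Without wild type pool 1 at 24 h the median was -0.69 with 29 of 38 lower, and without null pool 1 it was -1.77 with 37 of 38 lower. Single members whose sign at 24 h turned when 1 pool was left out were Tnnc1, Tnnt1, Myl2, Myh2, Myh1, Actn2, Mb and Mybpc1.

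At 8 h, 37 of 38 members lay lower in null glands, with a median of -1.58, or 2.99-fold lower, beside -0.01 over all genes. The 1 call was the Car3 probe set above, against 3.07% of all probe sets. An unadjusted p below 0.05 was found for 10 of 58, of which 8 were lower in null glands, against 15.6% of all. Groups did not overlap, with null lower, for 7 of 58, against 13.7% of all. In the fit without pool numbers all 3 shares were close to or below those of the array. With the pool number as a block, 21 of the 58 were called, 20 of them lower in null glands, against 1042 of all 23709. Without null pool 2 at 8 h the median was -0.63 with 36 of 38 lower. The sign at 8 h turned for Tnnc1, Myl3 and Ampd1 when 1 pool was left out. The comparison at each time rests on 3 pools a side, and the intervals of single members were wide: for Myh4 the 95% interval ran from -4.60 to 0.85 at 24 h and from -4.99 to 0.46 at 8 h.

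**Figure D3:**
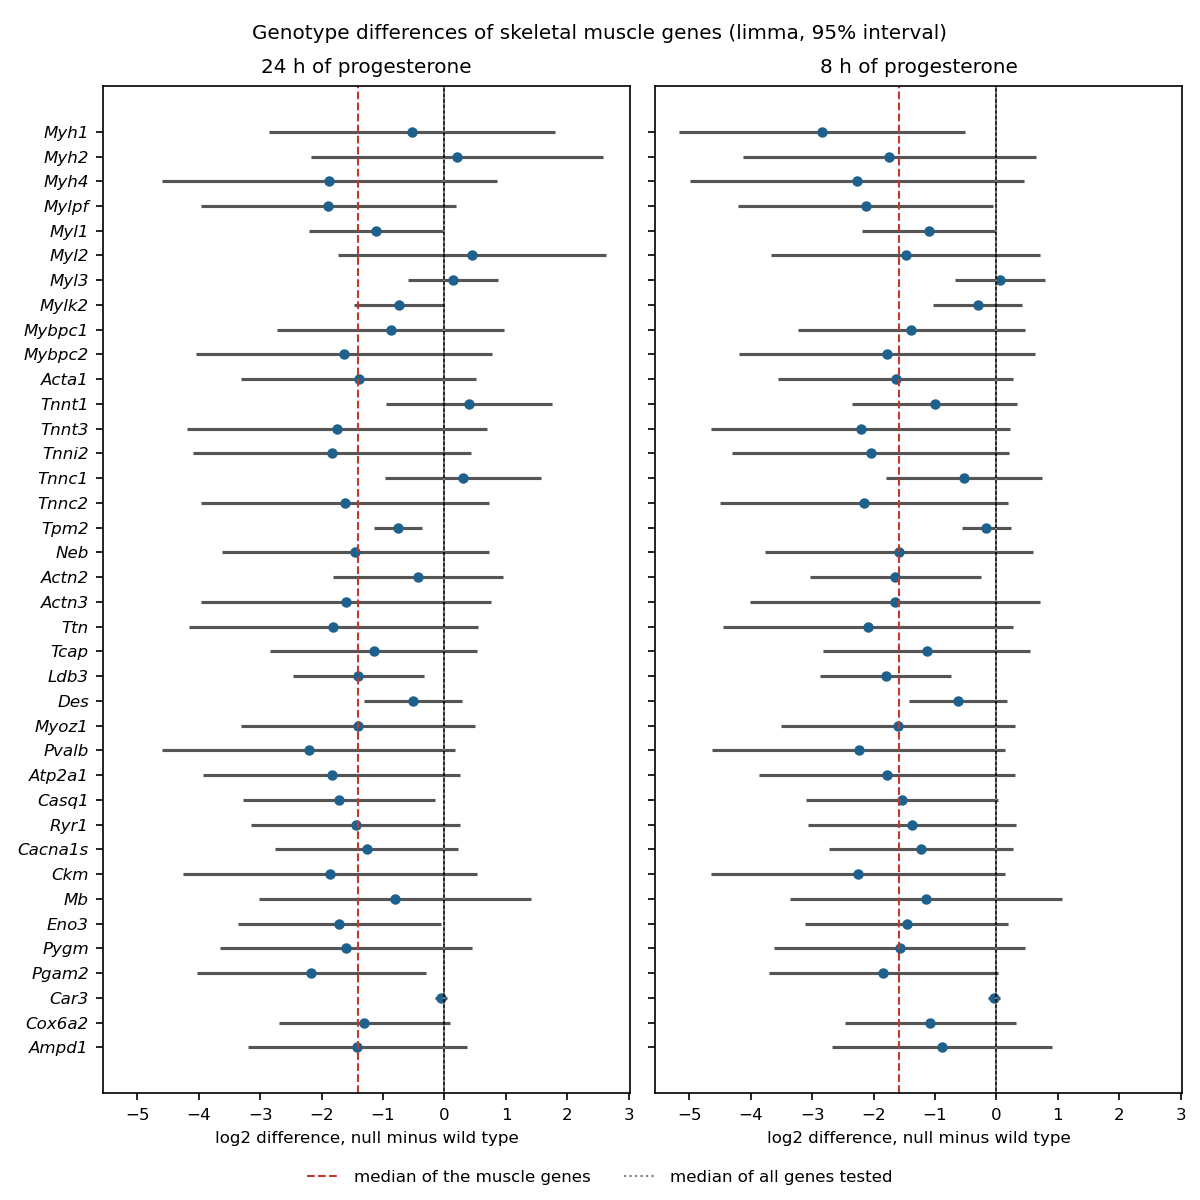
log2 difference, null minus wild type, of the 38 tested skeletal muscle genes at 24 h (left) and 8 h (right), with points for the limma estimate and lines for its 95% interval. Most points lie left of 0 near the dashed medians of -1.41 and -1.58, and most intervals cross 0.

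The genotype difference itself was compared between the times, as the difference at 24 h minus that at 8 h. No member probe set was called (0.143% of all), 2 of 58 had an unadjusted p below 0.05 (5.67% of all), and the median was 0.14. The median turned negative without null pool 1 at 24 h (-0.25), null pool 2 at 8 h (-0.88), wild type pool 2 at 24 h (-0.45) or wild type pool 1 at 8 h (-0.20).

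Time was compared within each genotype. In null glands 0 of 58 member probe sets were called (4.4% of all) and 1 had an unadjusted p below 0.05 (21.1% of all). The members' median was 0.40 at 24 h minus 8 h, and -0.65 without null pool 2 at 8 h, with 31 of 38 lower in place of 6. It was -0.03 without null pool 1 at 24 h. Same-numbered null pools of the 2 times deviated together. With the pool number as a block over all 12 arrays, Actn2 was called (0.96, limma adjusted p = 0.0484). That fit also paired wild type pools, and pools of different genotypes, by number. In wild type glands 1 of 58 was called, the Car3 probe set (5.22% of all), and 3 had an unadjusted p below 0.05 (21.5% of all). The median there was 0.22, and it was -0.46 without wild type pool 1 at 24 h and -0.12 without wild type pool 2 at 8 h.

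Fast and slow fibre genes parted in single pools. The 16 fast members averaged 0.34, -1.43 and -0.68 in null pools at 24 h, against 2.38, -0.29 and 0.72 in wild type pools, and 0.37, -3.40 and -0.30 in null pools at 8 h, against 1.46, -0.03 and 0.84 in wild type pools. The 5 tested slow members averaged 1.03, -0.32 and -0.78 in null pools at 24 h, against 0.77, -0.77 and -0.33 in wild type pools, and 0.19, -0.75 and -0.55 in null pools at 8 h, against 1.96, -0.23 and -0.22 in wild type pools. Wild type pool 1 at 24 h was thus the richest in fast genes and wild type pool 1 at 8 h the richest in slow genes. Of the fast genes 15 of 16 peaked in the first of these pools, and 4 of 5 slow genes in the second. Null pool 2 at 8 h was lowest for 15 of 16 fast genes and for 3 of 5 slow ones, though its slow mean of -0.75 lay close to the -0.55 of null pool 3.

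**Figure D4:**
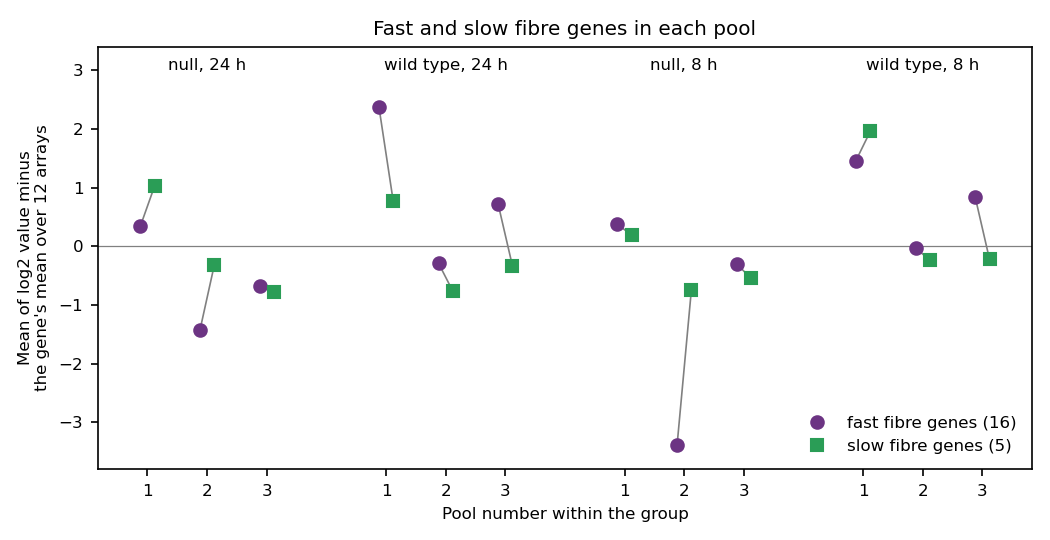
Mean of 16 fast fibre genes (circles) and 5 tested slow fibre genes (squares) in each of the 12 pools, as log2 value minus the gene's mean over 12 arrays. The circles run from -3.40 in null pool 2 at 8 h to 2.38 in wild type pool 1 at 24 h, while the squares stay between -0.78 and 1.96.

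The genotype difference had a median of -1.68 over the fast members at 24 h, with 15 of 16 lower in null glands, and 0.31 over the slow members, with 1 of 5 lower. At 8 h the medians were -1.81 over fast and -1.01 over slow members, with 16 of 16 and 4 of 5 lower. The difference between fast and slow members was not tested. Without null pool 1 at 24 h the slow median at 24 h was -0.27, with 4 of 5 lower. Without wild type pool 1 at 8 h the slow median at 8 h was -0.16, with 3 of 5 lower: Myl2 differed by -0.18 and Tnnt1 by -0.16 without it.

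Members varied together from pool to pool. Of the 38, 25 correlated at 0.9 or more over the 12 arrays with the mean of the other members (median r 0.96, and 0.94 for deviations within groups), and 14 of the 16 fast genes did. Ttn (0.996), Tnni2 (0.995) and Atp2a1 (0.995) were closest to the mean of the fast genes. Myl2 correlated at 0.963 with the other slow genes and 0.548 with the fast ones, and Myh2 at 0.939 with the slow genes and 0.646 with the other fast ones. Car3 (0.29), Myl3 (0.32) and Tnnc1 (0.41) were the 3 members under 0.5 against all others. The arrays share 1 tissue source each, so these correlations are descriptions, with no p.

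Members spread widely within groups. Their median within-group SD was 1.26, beside 0.14 over the 12002 genes tested, and 36 of 38 lay above the 95th percentile of 0.41. Among the 100 genes with the highest within-group SD, 25 were members. Myh4 ranked 7 with an SD of 1.82. Tpm2 had an SD of 0.25 and Car3 of 0.03.

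Genes outside the members that followed the mean member level most closely were for the most part known muscle genes. The 10 most alike over 12 arrays were Cmya5 (r 0.99), Smpx, Myot, Trdn, Myom2, Apobec2, Klhl41, Mypn, Asb5 and Mylk4 (r 0.97), and 8 of them stood in a list of 30 further skeletal muscle genes. Cmya5, which encodes a protein of the Z-disc and costamere, read 8.42, 6.66 and 7.41 in null pools at 24 h, against 10.40, 7.59 and 8.75 in wild type pools, and 8.21, 5.61 and 7.74 in null pools at 8 h, against 9.27, 7.82 and 8.59 in wild type pools. It was lowest and highest in the same pools as most members. Of 11964 genes that are no member, 40 had r of 0.9 or more and 0 had r of -0.9 or less.

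Of the 30 further skeletal muscle genes 20 were tested, 4 were not in the annotation and 6 were too low. None was called at 24 h or 8 h (limma), against 1.11% and 3.07% of all probe sets. An unadjusted p below 0.05 was found for 6 and 3 of the 20, against 13.7% and 15.6% of all. The medians were -1.38 at 24 h (19 of 20 lower in null glands) and -1.23 at 8 h (20 of 20). The largest differences were in Smpx (-1.82), Tmod4 (-1.70), Mylk4 (-1.69) and Klhl41 (-1.64) at 24 h and in Klhl41 (-2.17), Smpx (-1.94), Myot (-1.91) and Myom2 (-1.82) at 8 h. Of 8 more genes, mainly myogenic regulators and satellite cell markers, 2 were tested. The others, Pax7, Myf5, Myod1, Myog, Chrna1 and Musk, were too low to be tested. Myf6, the myogenic factor kept by mature fibres, read 4.65 in null pool 2 at 8 h and 7.28 in wild type pool 1 at 24 h, and differed by -0.55 at 24 h and -1.02 at 8 h. Cdh15, the cadherin of muscle and satellite cells, stayed within 1 log2 unit over the 12 pools and differed by 0.13 at 24 h and 0.09 at 8 h. All 7 heart markers, among them Myh6, Myl7, Tnnt2 and Tnni3, were too low to be tested.

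Markers of other tissues that a dissected gland could hold were read in the same pools. The 4 tested skin keratinocyte markers averaged -0.40, -0.86 and -1.02 in null pools at 24 h, against 2.65, 0.12 and 0.03 in wild type pools, and -0.25, 0.32 and -0.62 in null pools at 8 h, against -0.42, -1.04 and 1.50 in wild type pools. Wild type pool 1 at 24 h was thus the richest pool in both muscle and skin genes, with Krt10 at 12.43 there and 7.14 to 10.81 elsewhere. Wild type pool 3 at 8 h came second for skin genes and not for muscle genes. None of the 4 was called at either time (limma, with 2 at 24 h and 1 at 8 h under an unadjusted p of 0.05). All 4 lay lower in null glands at 24 h. Krt1, Krt2, Flg and Ivl exceeded the array median on fewer than 3 arrays and were not tested. Krt1 read 10.26 in wild type pool 1 at 24 h and 7.98 in wild type pool 3 at 8 h. In the same pools Flg read 7.92 and 6.91, and Krt2 8.15 and 5.28. Ivl stayed between 4.96 and 6.06.

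Brown adipocyte markers lay higher in null glands in 6 of 8 tested genes at both times. The 8 tested averaged 0.84, -0.10 and 0.25 in null pools at 24 h, against 0.19, 0.37 and -0.85 in wild type pools, and 0.82, 0.35 and -0.01 in null pools at 8 h, against -0.25, -0.54 and -1.06 in wild type pools. At 8 h all null pools lay above all wild type pools and 3 of 8 were called higher in null glands (limma). At 24 h 0 of 8 were called and 1 had an unadjusted p below 0.05. Muscle and brown fat share some of these genes, such as Cox7a1. Of 11 smooth muscle and myoepithelial markers 1 was called lower at 24 h and 0 at 8 h (6 and 1 at an unadjusted p below 0.05), with averages between -0.49 and 0.44 in the 12 pools. Of 8 luminal epithelial markers 3 were called lower in null glands at 24 h and 3 higher at 8 h, with averages between -0.38 and 0.40. White adipocyte, endothelial and Schwann cell markers stayed between -0.28 and 0.27, with 0 of 6, 0 of 6 and 0 of 2 called between the genotypes at either time and 0, 1 and 0 at 24 h and 1, 1 and 1 at 8 h under an unadjusted p of 0.05. Beside these counts and those of the skin markers, 1.11% of all probe sets were called at 24 h and 3.07% at 8 h. Unadjusted p lay below 0.05 for 13.7% and 15.6% of all. Among the white adipocyte markers Fabp4 lay between 14.60 and 14.66, near the top of the deposited scale at 14.7. Lep, well below it, lay between 10.87 and 11.53. The part of these tissues in the muscle differences was not tested.

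**Figure D5:**
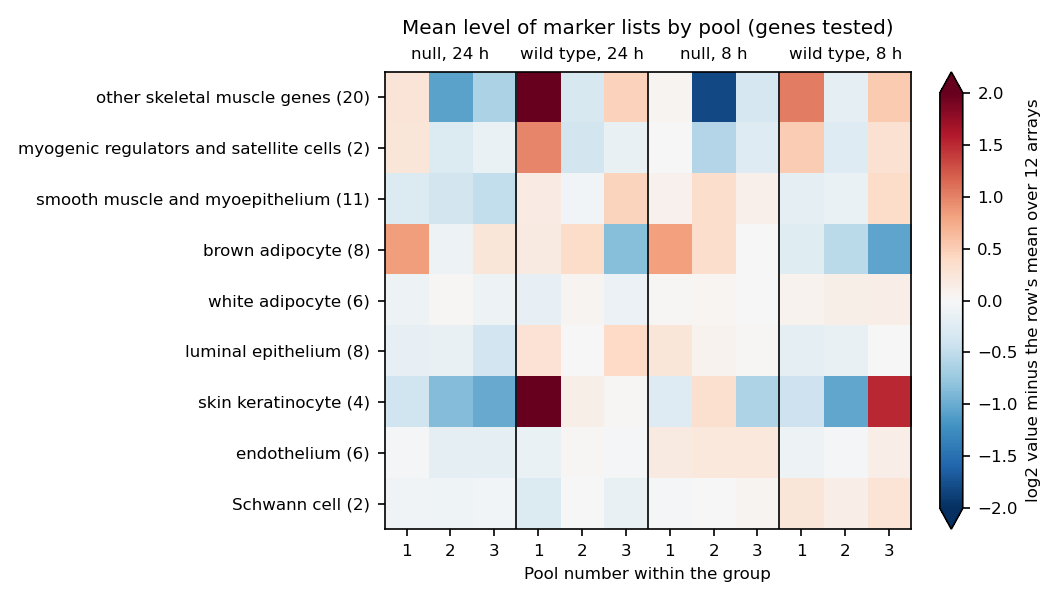
Mean level of 9 marker lists (rows, with the number of genes tested) in the 12 pools (columns), as log2 value minus the gene's mean, with colours ending at 2 in each direction. Further skeletal muscle genes follow the members from pool to pool, skin keratinocyte markers share the dark red of wild type pool 1 at 24 h, and white adipocyte markers are nearly flat.

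Calls elsewhere on the array were also counted with the muscle level of each pool taken into account. With the mean member level added to the fit as a covariate, 144 probe sets that are no member were called between the genotypes at 24 h, against 262 without it. At 8 h 337 were called with the covariate, against 728 without it. The mean member level itself differed between the group means of the genotypes, and its part in these calls was not tested.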

How the data were processed

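RNA of 12 pools was labelled as cRNA and hybridised to Affymetrix arrays, per the labels' protocols. The authors deposited 1 table of 45101 probe sets on what the values show to be a log2 scale (2.22 to 14.7). MAS5 is named in the submitters' processing notes, without version or role, and since MAS5 gives linear signals, how the deposited log2 values were summarised and normalised is not given in the sources used here. Gene names came from the platform annotation, and 64 control probe sets were left out. Those exceeding the array median on 3 or more of 12 arrays were tested (23709 probe sets, 12002 genes with 1 representing probe set each). Differences were tested with limma 3.58.1 in R 4.3.3 (4 group means over 12 arrays, trended prior) and Benjamini-Hochberg adjustment over all tested probe sets, called below 0.05; the calculation was tested on simulated data. The number of arrays limits the precision, and the labels call the pools biological replicates.

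Members and lists were chosen with earlier results of these data known. All 40 members were named by their probe set with the highest mean, with other probe sets where they differed, and the 10 genes most like the mean member level. Pool numbers are not said to mark a shared day or litter. Deviations of same-numbered arrays correlated at 0.52, 0.26 and 0.38 between the times in null glands. In wild type glands they correlated at 0.45, -0.01 and 0.02 between the times, and between genotypes at -0.04 to 0.43. The main fit took no account of the numbers. The replicate block paired arrays by number in both genotypes and between them. Alternatives were no filter, an untrended prior, a floor, quantile normalization, array weights, fitting the compared groups alone, a replicate block, testing 1 probe set per gene, the mean member level as a covariate and leaving out each array. Promoters came from RefSeq, build GRCm38.p6. Figures were drawn with matplotlib 3.10.9.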

Additional observations from a re-analysis of the deposited data

How the results depend on the processing

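With the pool number as a replicate block, the members called were 17 for genotype at 24 h, 21 at 8 h, 0 in the interaction, 1 between times in null and 2 between times in wild type glands, in place of 0, 1, 0, 0 and 1. All 17 at 24 h and 20 of the 21 at 8 h were lower in null glands. Over all 23709 probe sets the block called 482 for genotype at 24 h, against 262, and 1042 at 8 h, against 729. For time it called 1667 in null glands, against 1044, and 1815 in wild type glands, against 1238. Between genotypes the numbers are not known to pair the pools. The mean member level was lower in the null pool of 6 of 6 same-numbered pairs. That count cannot show pairing, since the group means of the genotypes differed too. The cause of these shifts was not tested.

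Array weights called 2, 9, 0, 1 and 1 member probe sets in the same order, and 685, 4017, 169 and 5775 probe sets in all for genotype at 24 h, at 8 h, the interaction and time in null glands, in place of 262, 729, 34 and 1044. For time in wild type glands they called 1781 in all, in place of 1238. Fitting only the groups compared, with fewer arrays in the fit, called 2 members at 8 h. Over all probe sets it called more at 8 h, 800 against 729. It called fewer elsewhere: 71 at 24 h, 348 for time in null and 500 for time in wild type glands. With 1 probe set per gene, fewer were tested, the calls were 0 members at 8 h and 0 for time in wild type glands, and 165, 338, 10, 572 and 648 in all. The mean member level as a covariate left 144 probe sets that are no member called at 24 h and 337 at 8 h. Among members, which make up that covariate, it called 1 at 24 h, Pgam2, and 0 at 8 h, where Car3 was lost. Quantile normalization moved the calls for time in null glands to 244 higher and 560 lower, against 193 and 851.

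Leaving out each array in turn gave 0 to 2 members called for genotype at 24 h, 0 to 3 at 8 h, 0 in the interaction, 0 between times in null and 1 to 2 between times in wild type glands, and in all 126 to 704, 320 to 889, 12 to 45, 232 to 1202 and 239 to 1328. For single members, the covariate made from them was left aside, and not all 58 tested member probe sets entered the tally. Under the other alternatives 4049 values stayed as they were, for the most part uncalled, and moved less than the spread between pools. Of the rest, 49 uncalled ones moved by more, 37 gained a call and 3 lost one. The replicate block gave 25 of these gained calls, fewer than its counts over all member probe sets. No called value changed sign. Among uncalled values the sign of many members turned in the interaction and both time comparisons, mostly when 1 array was left out. No scanner files were used, so the background behind low values and the ceiling near Car3 could not be examined.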
